A study of Danio rerio with 2 samples.

Results

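Megabase stretches of the zebrafish genome in which accessible sites called in a single tumour type leaned to the MYCN tumours were described from ATAC-seq peak lists. Chromosomes 1 to 25 were cut into windows of 1 Mb, and each peak was placed by its midpoint. Peaks with at least 1 bp in common with a peak of the other file were called shared, and the rest list-only. A window was kept as a domain leaning to MYCN when it held 10 or more list-only peaks and at least 55% of them were MYCN-only. This gave 261 domains among 1354 windows with enough list-only peaks (19.3%), and they held 22573 of the 146390 peaks of both lists. The number depends on the setting, with 573 domains (42.6% of such windows) when the MYC list was trimmed to the length of the MYCN list and 108 when the limit was 65%. Because the list-only peaks chose the domains, their numbers are given as a description and are not evidence for the lean.

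The peaks came from neuroblastoma cells of MYCN transgenic and of MYC transgenic zebrafish, and in both groups the sorted tumour cells carried EGFP under the dbh reporter, which marks cells of the noradrenergic lineage. Each transgene was represented by 1 library made from 50000 EGFP-positive cells. The labels give no age, no number of fish behind a library and no second library, so the comparisons below are between these libraries and could not be set against the spread between tumours. Gene annotation and sequence of the build used for the files (danRer7) were not used here, so the cell type was not checked against marker genes, and regions are given by position.

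ATAC-seq marks open chromatin by where the Tn5 transposase can insert adapters, and its peaks lie mostly at promoters, enhancers and sites bound by insulator proteins. Along vertebrate chromosomes, open and closed chromatin alternate in broad domains and compartments that can span a megabase or more and differ between cell types. MYC and MYCN are closely related basic helix-loop-helix transcription factors that bind DNA as dimers with MAX, mostly at sites that are already open. MYCN is amplified in a subset of aggressive human neuroblastomas, and other neuroblastomas have high MYC instead.

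In the domains leaning to MYCN the usual order of the lists was turned over. They held 12123 MYCN peaks and 10450 MYC peaks, or 46.4 and 40.0 per Mb. Outside them there were 50.9 MYCN peaks and 60.8 MYC peaks per Mb. The MYCN peaks covered 17.3 kb and the MYC peaks 15.6 kb per Mb of domain, against 19.0 and 23.9 kb elsewhere. In the domains the MYC list was thus thinner than elsewhere by more than the MYCN list was. MYCN peaks outnumbered MYC peaks in 259 of the domains and equalled them in 2, an order that the rule nearly fixes.

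Both kinds of list-only site contributed to the lean. The domains held 3660 MYCN-only and 2010 MYC-only peaks, so that 64.6% of the list-only peaks were MYCN-only (95% Wilson interval 63.3 to 65.8). The interval is for counting error only. It does not allow for the rule, which chose the domains on these same counts and so sets them apart from other windows. In all other windows 8965 were MYCN-only and 20507 were MYC-only, a share of 30.4% (29.9 to 30.9). Per Mb there were 14.0 MYCN-only peaks in the domains and 8.09 elsewhere, while there were 7.70 MYC-only peaks in the domains and 18.5 elsewhere. The domains made up 19.1% of the 1369 windows with any peak, and they held 29.0% of all MYCN-only peaks and 8.93% of all MYC-only peaks. A single domain held between 7 and 30 MYCN-only peaks (median 13) and between 1 and 17 MYC-only peaks (median 7).

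**Figure D1:**
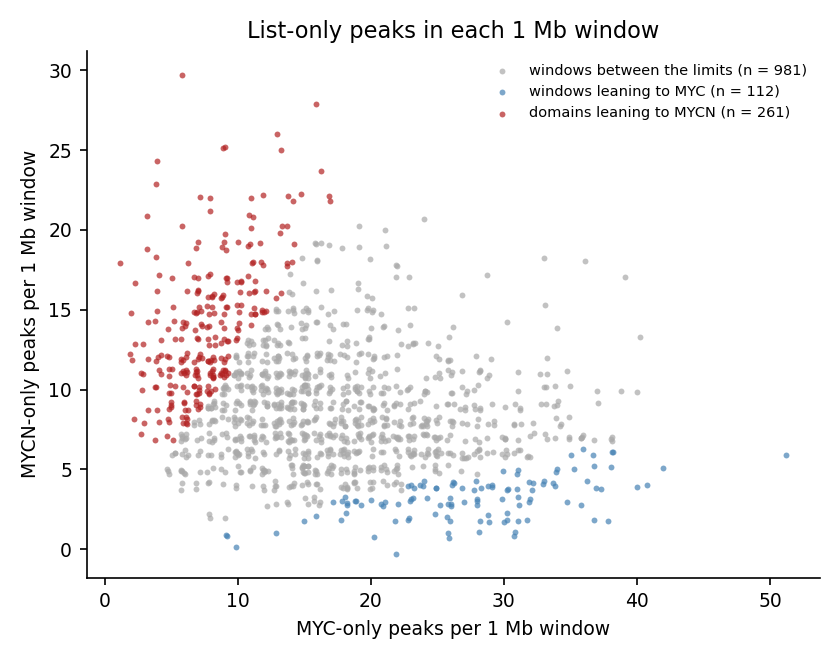
Number of MYC-only peaks (x axis) and MYCN-only peaks (y axis) in each 1 Mb window with 10 or more list-only peaks, with points moved slightly at random so that they do not hide each other. The 261 domains leaning to MYCN (red) hold at most 17 MYC-only peaks each, and the 112 windows leaning to MYC (blue, at most 15% MYCN-only) lie along the bottom.

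Shared sites were also sparser in the domains. There were 32.4 shared MYCN peaks and 32.3 shared MYC peaks per Mb, against 42.8 and 42.3 elsewhere. Of the MYCN peaks in the domains, 69.8% were shared (69.0 to 70.6), and of the MYC peaks 80.8% (80.0 to 81.5). Outside the domains the order was the opposite, since 84.1% (83.8 to 84.4) were shared in the MYCN list and 69.6% (69.2 to 69.9) in the MYC list. These shares follow in large part from the rule, which used the list-only peaks.

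The lean of a single domain was rarely extreme. The MYCN-only share of the list-only peaks had a median of 63.2% over the domains and a maximum of 94.7%, and it was at least 75% in 33 of them. With 10 to 44 list-only peaks each (median 20), single shares are imprecise. The lower end of the 95% Wilson interval exceeded the genome-wide share of 35.9% in 226 domains, and it did not in 35. It exceeded 50% in 43 domains. The rule picked the domains on these same counts, so neither comparison tests a single domain.

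The limit of 55% cut through a continuous distribution. Exactly at it were 9 domains. Those first in genome order lay on chromosome 5 between 41 and 42 Mb, on chromosome 8 between 37 and 38 Mb and on chromosome 9 between 15 and 16 Mb, and each held 11 MYCN-only and 9 MYC-only peaks. Just outside were chromosome 8 from its start to 1 Mb, where 17 of 31 list-only peaks were MYCN-only (54.8%), and 1 Mb windows from 50 Mb on chromosome 1 and from 52 Mb on chromosome 3, each with 12 of 22 (54.5%). In all, 127 windows had a share from 50% up to the limit and were not counted as domains.

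The most one-sided domain lay on chromosome 7 between 64 and 65 Mb. It held 18 MYCN-only peaks and 1 MYC-only peak among 41 MYCN and 24 MYC peaks, a share of 94.7% (75.4 to 99.1). On chromosome 14 between 46 and 47 Mb there were 17 MYCN-only and 2 MYC-only peaks (89.5%). The next by share were chromosome 18 between 36 and 37 Mb, with 15 and 2 (88.2%), chromosome 9 between 44 and 45 Mb, with 21 and 3 (87.5%), and chromosome 13 between 14 and 15 Mb, with 13 and 2 (86.7%). In 4 of these 5, all but the domain on chromosome 9, the MYC list had at most 24 peaks in the megabase, well under its average of 56.9 per Mb over all windows. The MYCN list, with 30 to 41 peaks in these 4, was also under its average of 50.1 per Mb.

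The domain with most MYCN-only sites was on chromosome 7 between 46 and 47 Mb, where 30 peaks were MYCN-only and 6 were MYC-only. Other crowded domains held many list-only sites of both kinds. Chromosome 7 between 66 and 67 Mb had 28 MYCN-only and 16 MYC-only peaks, and chromosome 12 between 48 and 49 Mb had 26 and 13. Chromosome 3 between 43 and 44 Mb and chromosome 4 between 35 and 36 Mb each had 25 MYCN-only and 9 MYC-only peaks, but the former held 61 MYCN and 44 MYC peaks in all and the latter 38 and 22.

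MYCN-only sites were spread through the domains rather than packed into a single cluster. When a domain was divided into 10 bins of 100 kb, its MYCN-only peaks fell into a median of 7 bins, and into 5 or more bins in 257 of the 261 domains. A single bin held 50% or more of the MYCN-only peaks in 3 domains, and the fullest bin of any domain held 11. In windows between the limits, with fewer MYCN-only peaks per window, the median was 6 bins, and 723 of 981 windows filled 5 or more. A single bin held 50% or more of the MYCN-only peaks in 92 of these windows (9.38%). A window with more MYCN-only peaks can fill more bins, and the rule favoured windows with many of them. Whether the sites were spread differently in the domains, given their number, was not tested.

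The MYCN-only sites of the domains were mostly weak, as were those elsewhere, but a somewhat larger part of them lay in the upper 50% of their list. Strength was read from the score deposited with each peak, which is not defined in the sources and was compared only inside a list. The median score of MYCN-only peaks was 55 both in the domains (quartiles 40 and 78) and outside them (38 and 72). A share of 14.2% of them (13.1 to 15.4) lay in the upper 50% of the MYCN list by score, against 11.6% (11.0 to 12.3) of MYCN-only peaks elsewhere. For MYC-only peaks the order was the opposite, with 8.76% (7.60 to 10.1) in the upper 50% of the MYC list in the domains and 13.0% (12.5 to 13.5) elsewhere. The highest score of a MYCN-only peak was 398 in the domains and 812 outside them. MYCN-only peaks in the domains lay a median of 8.81 kb from the nearest MYC peak, against 5.70 kb in windows between the limits, where the MYC list was denser.

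Of the 35 MYCN-only peaks in the highest decile of the MYCN list, 10 lay in the domains. The domains held a like part, 29.0%, of all MYCN-only peaks. The highest-scoring lay on chromosome 7 from 6674907 to 6675249, with a score of 398 (rank 3569 of 68556), and the nearest MYC peak was 12.5 kb away. It was followed by chromosome 1 from 3453113 to 3453478 (score 379) and chromosome 14 from 5180027 to 5180399 (357). These sites stood in domains with 10 to 19 MYCN-only peaks. On chromosome 9 from 57923055 to 57923454 the score was 345, and on chromosome 25 from 25592145 to 25592712 it was 336. Chromosome 7 held another pair, from 63571264 to 63571699 (323) and from 62643245 to 62643571 (311), in neighbouring domains of the same stretch. The site farthest from any MYC peak among the 10 was on chromosome 1 from 59260670 to 59261179 (313), at 24.6 kb. The last of the 10 were on chromosome 23 from 5969034 to 5969412 (322) and on chromosome 16 from 17373261 to 17373762 (320).

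Strong MYC-only sites were also present in the domains. The highest-scoring lay on chromosome 16 from 19319623 to 19319957, with a score of 419 (rank 6869 of 77834 MYC peaks), in a domain with 16 MYCN-only and 13 MYC-only peaks. The next were on chromosome 13 from 19686786 to 19687306 (387) and on chromosome 3 from 41809605 to 41810189 (350). Even the domain with the most MYCN-only sites, on chromosome 7 between 46 and 47 Mb, held one of them, from 46455398 to 46456150 (340). The fifth was on chromosome 8 from 1103709 to 1104083 (333). Of all 27 MYC-only peaks in the highest decile of the MYC list, 1 lay in the domains, which held 8.93% of all MYC-only peaks.

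Shared sites, which the rule did not use, leaned the same way as the list-only sites. They come from the same libraries and the same megabases, so they are another readout of these libraries and not a replicate. For each of 52911 pairs, in which a MYCN peak and a MYC peak overlapped each other and no further peak, the score was turned into a percentile among all pairs of its own list. In the domains 5229 of 8090 pairs had the higher percentile in MYCN, or 64.6% (63.6 to 65.7), against 48.9% of all pairs. Outside the domains the share was 46.1% (45.6 to 46.5). In windows leaning to MYC, defined as windows with 10 or more list-only peaks of which at most 15% were MYCN-only (112 of 1354, 8.27%), it was 31.4% (30.0 to 32.7).

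The size of the shift was modest beside its spread over pairs. The median difference of percentiles, MYCN minus MYC, was 5.25 points in the domains (quartiles -4.15 and 19.8) and -1.25 points elsewhere (-13.4 and 9.88). The middle of the shared sites in the domains stood at percentile 54.7 in MYCN and 42.5 in MYC. Outside the domains these medians were 49.2 and 51.1. Differences of 25 points or more towards MYCN were found in 18.8% of the pairs in the domains, against 11.4% of all pairs. Differences of 25 points or more towards MYC were found in 4.97%, against 10.8% of all pairs.

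The same lean was seen domain by domain. The median difference of the pairs was above 0 in 234 of the 261 domains (89.7%), while it was above 0 in 50.9% of all 1354 windows. It was 0 or below in 27 domains, and it was 10 points or more in 67. Each domain held between 4 and 69 pairs (median 30), so its own median is imprecise. Among domains with at least 10 pairs, the largest shifts were on chromosome 17 between 36 and 37 Mb (24.0 points, 22 pairs), chromosome 13 between 14 and 15 Mb (23.8 points, 22 pairs) and chromosome 18 between 36 and 37 Mb (21.8 points, 15 pairs). The MYCN-only shares of these domains, chosen here for their shift, were 86.4%, 86.7% and 88.2%. The shifts farthest towards MYC were on chromosome 4 between 36 and 37 Mb (-8.15 points, 10 pairs), chromosome 5 between 11 and 12 Mb (-5.33 points, 11 pairs) and chromosome 8 between 6 and 7 Mb (-5.04 points, 26 pairs). Their MYCN-only shares were 57.1%, 75% and 57.1%. The largest shift of any domain, 26.0 points, rested on 8 pairs, on chromosome 4 between 37 and 38 Mb, where the MYCN-only share was 57.1%.

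**Figure D2:**
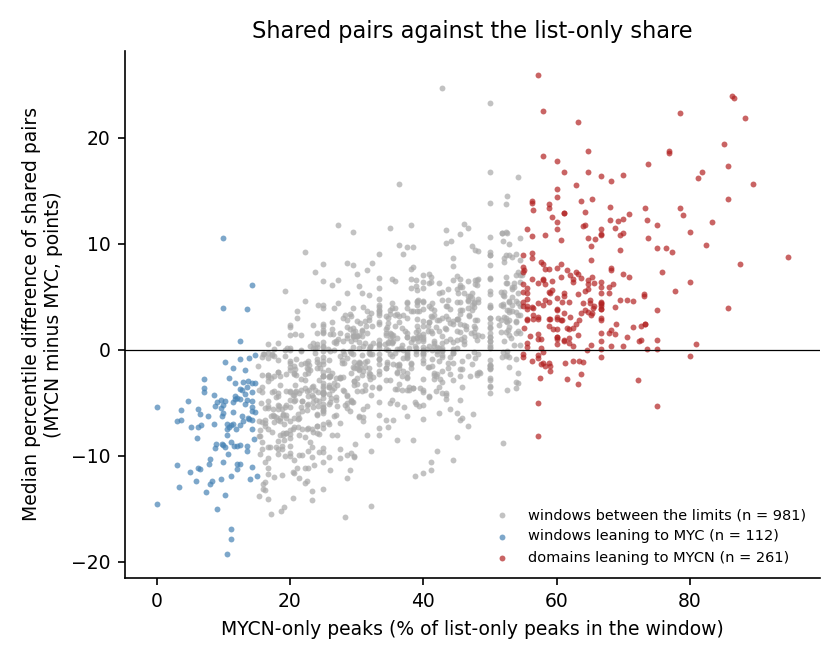
Each point is a 1 Mb window with 10 or more list-only peaks. The x axis gives the MYCN-only percentage of its list-only peaks, and the y axis the median percentile difference of its shared pairs (MYCN minus MYC, in points). Medians are above 0 in 234 of the 261 domains leaning to MYCN (red) and in 5 of the 112 windows leaning to MYC (blue).

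The lean of the shared sites followed the lean of the list-only sites over the whole range. Pairs ranked higher in MYCN made up 36.8% in windows with a MYCN-only share from 15% to under 25%, 52.0% from 35% to under 45%, and 58.4% (57.3 to 59.5) from 45% to under 55%. Within the domains they made up 62.4% (61.0 to 63.7) in the 153 domains with a share under 65%, 66.1% (64.1 to 68.0) in the 75 from 65% to under 75%, and 74.1% (71.1 to 77.0) in the 33 at or above 75%. No step was visible at the limit of 55%. Across the 1354 windows, which share the same libraries and lie next to each other, the Spearman correlation of the list-only share and the median pair difference was 0.70. Within the 261 domains alone it was 0.23. The densest of these classes in MYC peaks lay at the MYC end, with 69.6 MYC peaks per Mb from 15% to under 25%, and the sparsest in the domains at or above 75%, with 30.0.

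The lean of shared sites was present among strong sites as well as weak ones. All pairs were divided into 4 equal classes by the mean of their 2 percentiles. In the strongest class 65.8% of the 2019 pairs in the domains ranked higher in MYCN (63.7 to 67.9), against 45.8% (44.9 to 46.7) outside the domains. In the weakest class the shares were 59.8% (57.7 to 61.9) and 47.4% (46.5 to 48.3). The domains held nearly equal parts of their pairs in each class, from 24.2% to 25.5%.

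**Figure D3:**
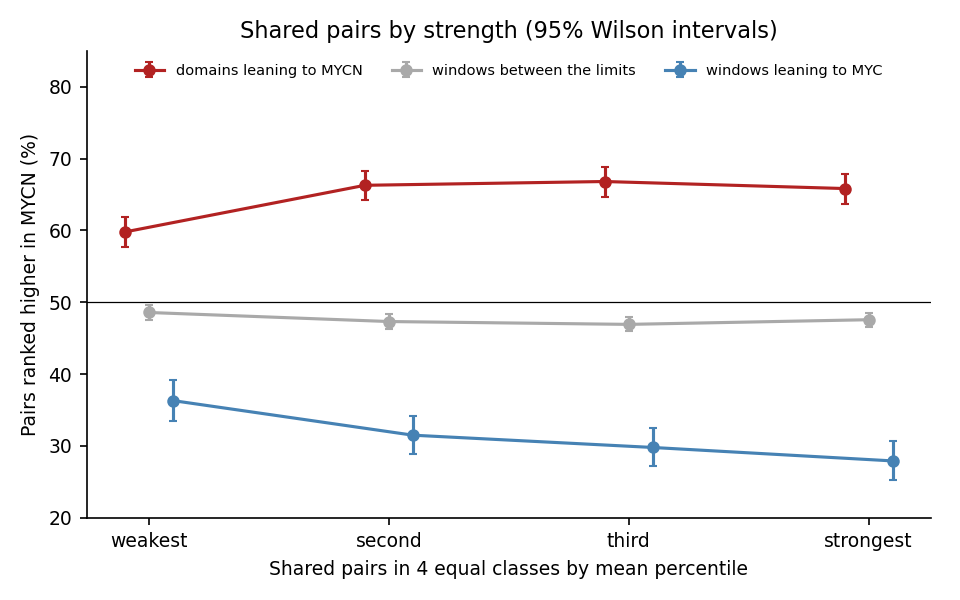
Percentage of shared pairs with the higher percentile in MYCN (y axis), for 4 equal classes of all pairs from the weakest to the strongest (x axis), in 3 kinds of window, with 95% Wilson intervals that cover counting error only. The domains leaning to MYCN (red) lie between 59.8% and 66.8%, above the other windows in each class.

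Peak widths moved with the scores. The width of each peak was ranked among all pairs of its list in the same way. In the domains the width ranked higher in MYCN for 65.3% of the pairs (64.2 to 66.3), against 54.5% of all pairs. The share was 52.6% (52.1 to 53.0) outside the domains and 41.9% (40.5 to 43.4) in windows leaning to MYC. The median width of the paired peaks was 363 bp in MYCN and 367 bp in MYC in the domains, and 347 bp and 392 bp elsewhere. Width and score come from the same signal and are not separate evidence.

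The shared sites that differed most in the domains included strong peaks of 1 library whose counterpart ranked low among the pairs of its list. On chromosome 6 the MYCN peak from 25565416 to 25565823 had a score of 421 (percentile 94.6), and the MYC peak inside it, from 25565537 to 25565740, had a score of 47 (percentile 7.68). Scores of the 2 lists have no stated common scale, so the percentiles carry the comparison. On chromosome 17 the MYCN peak from 47818357 to 47818751 had a score of 408 (percentile 94.1) and its MYC counterpart 47 (percentile 7.68). On chromosome 4 the MYCN peak from 33673721 to 33674669 had a score of 509 (percentile 97.4) and was 949 bp wide. Its MYC peak was 211 bp wide with a score of 57 (percentile 12.2). The MYC peaks of these sites were the narrower ones throughout. The remaining 2 of the 5 lay on chromosome 10 from 2348184 to 2348537 (percentiles 86.0 in MYCN and 1.41 in MYC) and on chromosome 13 from 14393752 to 14394447 (83.6 and 1.41).

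Single shared sites in the domains also went the other way. The pair farthest towards MYC lay on chromosome 13 from 15788771 to 15789274 in MYC, with a score of 293 (percentile 75.8), and its MYCN peak had a score of 37 (percentile 3.22). Another lay on chromosome 13 from 13946340 to 13946782 in MYC (percentiles 81.8 in MYC and 10.6 in MYCN). Both stood in the same stretch of 3 domains as the site at 14393752 that leaned to MYCN. The others lay on chromosome 1 from 28764959 to 28765355 (percentiles 73.6 and 2.55), chromosome 4 from 59175195 to 59175650 (76.8 and 5.76) and chromosome 12 from 48623998 to 48624425 (87.9 and 16.8). The largest difference towards MYC was 72.6 points, and the largest towards MYCN was 87.0 points.

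All 25 chromosomes carried domains leaning to MYCN. Their part of the windows with enough list-only peaks ran from 6.67% on chromosome 6 (4 of 60) to 38.6% on chromosome 9 (22 of 57). After chromosome 9 came chromosome 1, with 17 domains of 60 windows, then chromosome 12, with 14 of 51, and chromosome 20, with 15 of 55. On every chromosome more than 50% of the pairs in the domains ranked higher in MYCN, from 55.6% on chromosome 10 to 79.1% on chromosome 17. In the remaining windows of the same chromosomes the lowest value was 39.0%, on chromosome 4, and the highest 53.5%, on chromosome 1. The interval of the domains lay above the value of the remaining windows on all 25 chromosomes. On chromosome 10 this was narrow, with a lower end of 49.8% against 48.5%. The intervals cover counting error only, take neighbouring pairs as separate, and are not a test.

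**Figure D4:**
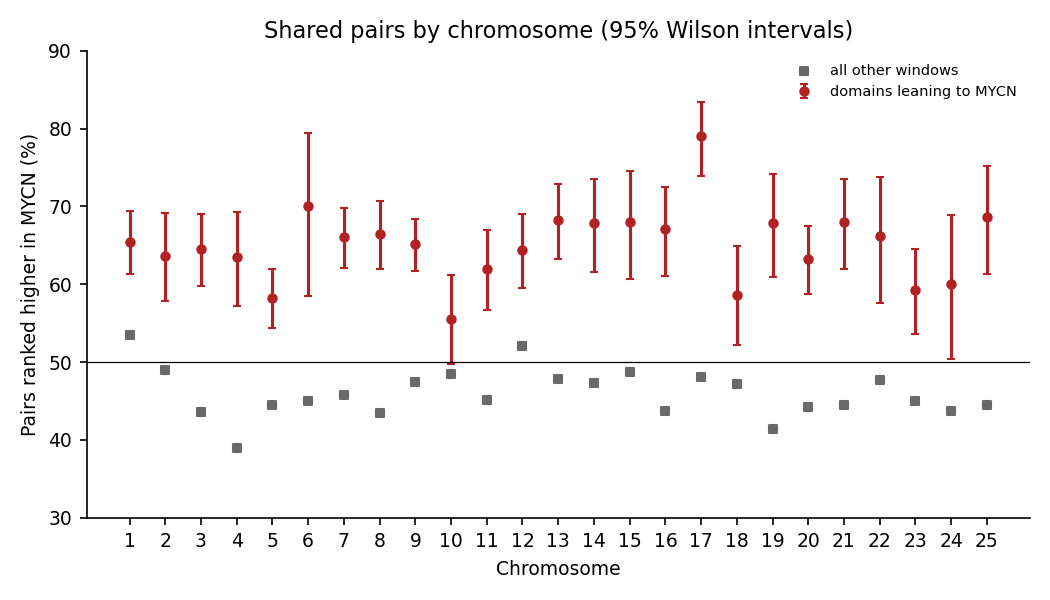
Percentage of shared pairs with the higher percentile in MYCN (y axis) by chromosome (x axis). Red circles are the domains leaning to MYCN with 95% Wilson intervals, which cover counting error only, and grey squares are all other windows of the chromosome. Every circle lies above its square, with chromosome 10 the closest to 50%.

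On chromosome 4 all 13 domains lay on the side from 22 Mb to the end, which includes the heterochromatic long arm. They were 13 of the 40 windows there with enough list-only peaks (32.5%), against 19.3% of all such windows. None lay before 22 Mb, where 22 windows had enough list-only peaks. Those 13 domains were sparse, with 32.4 MYCN and 26.7 MYC peaks per Mb, and 63.4% of their 238 pairs ranked higher in MYCN. The first and last 2 windows of the chromosomes held few domains, 5 of 95 windows (5.26%), against 256 of 1259 (20.3%) farther inside. Chromosomes 3 and 12 held 12 domains of 63 windows (19.0%) and 14 of 51 (27.5%). Of the pairs in these domains, 64.5% and 64.4% ranked higher in MYCN, against 64.6% in all domains.

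Domains often adjoined each other. Of the 261 domains, 160 touched another domain (61.3%), and 101 stood alone. Of the 1108 windows outside the domains, 270 touched a domain. The adjoining part of the domains was 82.0% (470 domains) with the trimmed MYC list. It was 45.3% (82) with only peaks at or above the median score of their list, and 36.1% (39) with a limit of 65%. It depends in part on how common domains are. Most windows have 2 neighbours, so even scattered domains would adjoin more often than the share of windows that are domains. Domains made up 42.6%, 17.7% and 7.98% of the windows with enough list-only peaks in these settings. With windows of 500 kb the adjoining part was 35.6% (126 domains), where domains made up 17.6% of such windows. The adjoining part thus also differed between settings in which domains were about as common as the 19.3% here. Neighbours were also counted once for each side of each domain, so a window between 2 domains counts for both. Of 515 such contacts with a window that had enough list-only peaks, 196 were with another domain (38.1%). Domains were 19.3% of all windows with enough list-only peaks. Counted in the same way, 5 of 222 contacts of windows leaning to MYC were with a domain (2.25%). The domains formed 163 separate stretches, of which 62 held at least 2 domains and 22 held at least 3. The 22 long stretches lay on 14 chromosomes and together held 80 domains.

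Each of the 2 longest stretches spanned 7 Mb. On chromosome 9 between 43 and 50 Mb there were 380 MYCN and 317 MYC peaks. List-only among them were 112 in MYCN and 47 in MYC, and 168 of 260 pairs ranked higher in MYCN (64.6%). On chromosome 8 between 32 and 39 Mb there were 370 MYCN and 330 MYC peaks. List-only among them were 107 in MYCN and 67 in MYC, and 184 of 257 pairs ranked higher in MYCN (71.6%). In both stretches the median pair difference was above 0 in all 7 domains. A stretch of 5 domains lay on chromosome 13 between 38 and 43 Mb, where 66 peaks were MYCN-only and 27 were MYC-only, and 95 of 135 pairs ranked higher in MYCN (70.4%).

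Stretches of 4 domains were found on 4 chromosomes. The most one-sided of them was on chromosome 7 between 61 and 65 Mb, where 55 peaks were MYCN-only and 17 were MYC-only, and 71.2% of 104 pairs ranked higher in MYCN. It includes the domain with the highest share of all and the pair of strong MYCN-only sites given above. Chromosome 5 between 45 and 49 Mb held 71 MYCN-only and 33 MYC-only peaks, with 68.7% of 131 pairs higher in MYCN. Chromosome 12 between 13 and 17 Mb held 54 and 29, with 65.1% of 83 pairs. Chromosome 4 between 35 and 39 Mb was the exception among the 22 long stretches. It held 58 MYCN-only and 33 MYC-only peaks, but 20 of its 42 pairs ranked higher in MYCN (47.6%, 33.4 to 62.3), and 58 of its 100 MYCN peaks had no MYC counterpart.

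The 15 stretches of 3 domains all had over 50% of their pairs ranked higher in MYCN. The highest shares were 81.6% on chromosome 17 between 46 and 49 Mb, 76.8% on chromosome 20 between 10 and 13 Mb, 76.0% on chromosome 14 between 44 and 47 Mb, and 75.8% on chromosome 17 between 38 and 41 Mb. Next were chromosome 21 between 33 and 36 Mb (74.4%), chromosome 9 between 55 and 58 Mb (71.3%), chromosome 1 between 32 and 35 Mb (70.8%) and chromosome 6 between 24 and 27 Mb (70.7%). The stretch on chromosome 6 holds the shared site with the largest difference. On chromosome 1 between 12 and 15 Mb the share was 69.5%, on chromosome 5 between 50 and 53 Mb 65.7%, on chromosome 3 between 41 and 44 Mb 64.6%, on chromosome 13 between 13 and 16 Mb 63.3% and on chromosome 14 between 15 and 18 Mb 62.9%. The lowest were 60.4% on chromosome 9 between 9 and 12 Mb and 56.4% on chromosome 5 between 57 and 60 Mb. With 56 to 117 pairs each, single shares are imprecise, with an interval of 72.2 to 88.4 for the highest and 47.4 to 65.05 for the lowest.

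Shared sites leaned to MYCN in lone domains, and more so in stretches of 3 or more. The 40 stretches of 2 domains stood at about the level of the lone domains. In the 101 lone domains 63.2% of 3088 pairs ranked higher in MYCN (61.5 to 64.9), and in the stretches of 3 or more 68.2% of 2314 pairs did (66.3 to 70.1). The MYCN-only shares of list-only peaks were 63.2% and 66.7%.

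The surroundings of the domains leaned too, and the lean faded over several megabases. At a distance of 1 window from a domain, counting domains and other windows alike, 47.6% of the list-only peaks were MYCN-only and 58.7% of the pairs ranked higher in MYCN. At 5 windows the values were 41.2% and 54.1%, and at 10 windows 37.8% and 50.0%, close to the genome-wide 35.9% and 48.9%. Domains were 160 of the 430 windows at a distance of 1 and 92 of the 409 at 10, so they carry part of these values. Among the 270 neighbouring windows that were not domains, 38.1% of the list-only peaks were MYCN-only and 55.5% of 10892 pairs ranked higher in MYCN. The rule limited such windows to lower list-only shares. In windows that were not domains the values were 34.3% and 51.4% at 5 windows and 31.4% and 46.7% at 10. In all windows outside the domains they were 30.4% and 46.1%. A window can lie at several distances from different domains and was then counted at each.

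**Figure D5:**
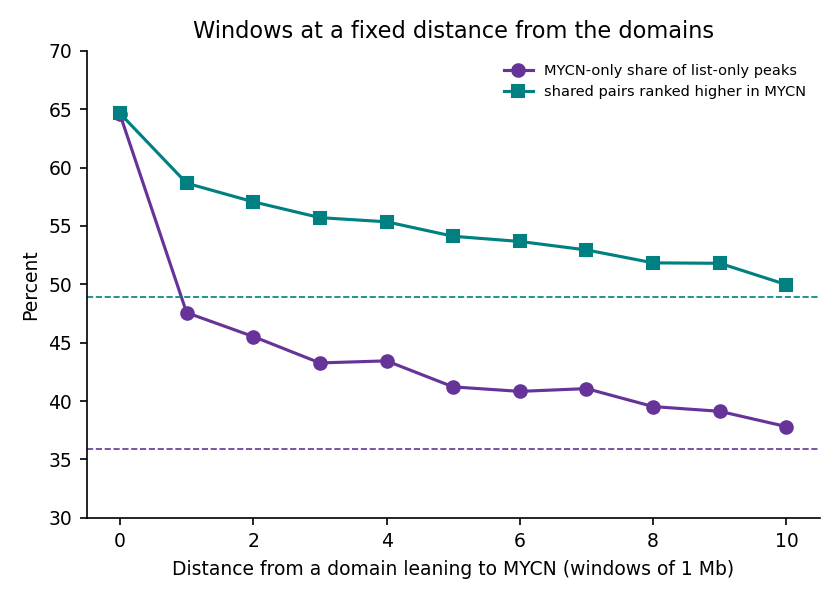
MYCN-only percentage of list-only peaks (purple) and percentage of shared pairs with the higher percentile in MYCN (green) in windows at a fixed distance from any domain leaning to MYCN (x axis, in windows of 1 Mb). Dashed lines are the genome-wide values of 35.9% and 48.9%. Distance 0 is the domains themselves, chosen on the purple measure, and both curves come down towards the genome-wide values by 10 windows. At other distances, windows that are themselves domains are counted too and carry part of the curves.

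Read depth, background and tumour-cell purity of either library are unknown from the peak lists, and their part in these differences was not tested. A transgene and its library cannot be told apart with 1 library each.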

How the data were processed

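ATAC-seq peak lists were available for 1 MYCN and 1 MYC library. Per the submitters' processing notes, the tools were Bowtie2 2.2.1 and MACS2 2.1.0 and the build was danRer7. Settings and the treatment of duplicates and of the Tn5 offset are not given in the sources used here. Each library has its own list, in which the authors deposited a score for every peak without defining it. Its smallest value was 13 in both lists. Without read counts, the depth is unknown.

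Peaks on chromosomes 1 to 25 (68556 MYCN and 77834 MYC) were overlapped with numpy 2.4.6 and pandas 2.3.3 under Python 3.11.15. The list-only counts were checked against bedtools 2.31.1, and the window code was tested on simulated data. Intervals are 95% Wilson intervals. With 1 library per transgene there was no test and no p-value. Named were stretches of 3 or more adjoining domains, the 5 domains highest in share and in MYCN-only count, the 3 windows on either side of the limit (ties in genome order), and the 10 MYCN-only, 5 MYC-only and 5 plus 5 shared sites leading in score or percentile difference. Shared sites needed a score at or above the list median in at least 1 library. The domains with the most extreme pair shifts were chosen after their values were seen. The members and rules were chosen with earlier results of these data known. The alternatives were other overlaps, score cuts, window sizes and offsets, limits and percentiles. The planned gene names and gene list were not run, since no danRer7 annotation was used here. Figures were drawn with matplotlib 3.10.9.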

Additional observations from a re-analysis of the deposited data

How the results depend on the processing

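In all alternatives tried the MYCN-only share, the MYCN part of all peaks and the share of pairs ranked higher in MYCN stayed above 50% in the domains. The first is held above 50% by the rule, and the second nearly so, since it includes the same list-only peaks. Sharing defined by 50% reciprocal overlap gave a MYCN-only share of 62.3%. Keeping only peaks at or above the median score of their list gave 66.4%, with 82 adjoining domains and 63.4% of pairs higher in MYCN. Trimming the MYC list to the MYCN length gave 573 domains, 470 of them adjoining, with 68.9% MYCN-only, 54.7% of all peaks from MYCN and 60.2% of pairs higher in MYCN. The trimming removes the weakest MYC peaks, so more windows pass the limit by construction. Windows of 500 kb gave 67.6% MYCN-only and 54.99% of all peaks from MYCN. Windows of 2 Mb gave 98 domains, 56 adjoining, with 62.1%, 53.0% and 65.8% for the same 3 shares. Requiring 20 list-only peaks left 151 domains, 73 adjoining, and 63.6% of pairs. A limit of 50% gave 279 adjoining domains, with 60.4%, 52.6% and 62.8%, and a limit of 65% gave 108 domains, 39 adjoining, with 72.0%, 55.8% and 68.3%. Percentiles within the whole list gave 56.9% of pairs in the domains against 38.5% elsewhere. The stronger 50% of pairs gave 66.3% and the weaker 50% gave 63.0%. The share of pairs exceeded that elsewhere by 16.3 to 20.8 points in every setting. No paired analysis was possible because there was only 1 library on either side, and none could be left out. The unknown depth limits every count of peaks.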
